A study of Homo sapiens with 6 samples.

Results

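The zinc transporters and metallothioneins of K562 cells were described by their transcript levels with and without hyperoside. The members were set by a rule on gene symbols, with earlier results of these data known. The rule took every gene of the count table named SLC30A or SLC39A followed by a number. It also took every gene named MT1 or MT2 followed by a single letter, and MTF1. This gave 34 of the 24960 genes in the table, namely 10 SLC30A transporters, 14 SLC39A transporters, 9 metallothioneins and MTF1. K562 is an established human leukemia cell line. RNA from 3 control libraries and 3 hyperoside libraries was sequenced, and hyperoside, a flavonol glycoside, was given at 2 mM by the account in the paper. The 2 groups share the cell line, and the sources used here name no engineered allele for them. The label of the control group reads only as control, and whether it received a vehicle was not given. The time between treatment and RNA extraction was not given in the sources used here. Nothing in the sources used here says that the libraries came from separate cultures, so the p-values measure the spread between these libraries, which may be technical.

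Zinc is held at a very low free level in the cytosol by transporters that work in opposite directions and by small cysteine-rich proteins that bind it. SLC30A proteins (ZnT) move zinc out of the cytosol, either across the plasma membrane or into vesicles and organelles, while SLC39A proteins (ZIP) move it into the cytosol from outside the cell or from organelles. Metallothioneins bind zinc and copper in the cytosol, and MTF1 is the transcription factor that senses zinc and drives the metallothionein genes and SLC30A1 through metal response elements (MREs) in their promoters. Erythroid cells, whose program K562 cells partly express, take up metals for heme and for zinc enzymes such as carbonic anhydrase.

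Each library held between 35613283 and 36754725 counts assigned to genes, and TMM scaling factors ran from 0.957 to 1.03. Of all genes, 15095 were expressed highly enough to be tested. The labelled tissue is bone. The markers of K562 cells used here (hemoglobins HBG1, HBG2 and HBE1, GATA1, TFRC, LMO2 and KLF1) were all detected, with a summed level of 7294 to 9077 FPKM in control libraries and 5278 to 6287 FPKM in hyperoside libraries. The sum was nearly all globin, and the markers did not move together: HBG1, HBG2 and HBE1 fell, TFRC, LMO2 and KLF1 rose by 0.88, 0.92 and 0.96 on the log2 scale, and GATA1 did not pass the test (-0.06). The 4 osteoblast and fibroblast markers in the table (COL1A1, COL1A2, SP7 and DCN) summed to between 0.803 and 1.12 FPKM in any library. B cell markers summed to between 1.18 and 1.57 FPKM. T cell markers summed to 35.2 to 42.6 FPKM in controls and 48.1 to 54.1 FPKM with hyperoside, nearly all of it CD3D, and epithelial keratins with EPCAM to 624 to 679 FPKM and 695 to 726 FPKM. Of the epithelial markers KRT19 rose by 0.46, while EPCAM, KRT8 and KRT18 did not pass the test (-0.02, -0.05 and -0.06). The part of these differences in the values below was not tested. In bulk RNA, fewer cells of a kind and less RNA per cell cannot be told apart.

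Of the 34 members, 26 were tested and 13 passed an adjusted p of 0.05 (edgeR's quasi-likelihood test, Benjamini-Hochberg adjustment over all tested genes). Over all tested genes 45.3% passed, so the members' share of 50% lay near the background. In direction, 3 members were higher with hyperoside (SLC30A1, SLC30A10 and SLC39A11) and 10 were lower (SLC30A3, SLC30A4, SLC30A5, SLC39A3, SLC39A6, SLC39A7, SLC39A9, SLC39A14, MT1X and MT2A). Over all tested genes 22.1% passed as higher and 23.2% as lower. The median log2 fold change was -0.29 over the 26 tested members and 0.00 over all tested genes, and 19 of the 26 had a negative log2 fold change. Without control replicate 1 the members' median was -0.44. A differentially expressed gene (DEG) also had to pass a fold change above 2, as 10.2% of all tested genes did, 6.43% higher and 3.76% lower. Among the members 0 did so as higher and 1, SLC30A3, as lower. MT2A joined it without control replicate 2 or without control replicate 3, and MT2A and SLC39A2 joined it without hyperoside replicate 3. The 3 hyperoside libraries lay wholly above or below the 3 control libraries on normalized CPM (counts scaled to library size) in 14 of the 26 members, 3 above and 11 below, against 54.4% of all tested genes, 27.1% above and 27.3% below.

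**Figure D1:**
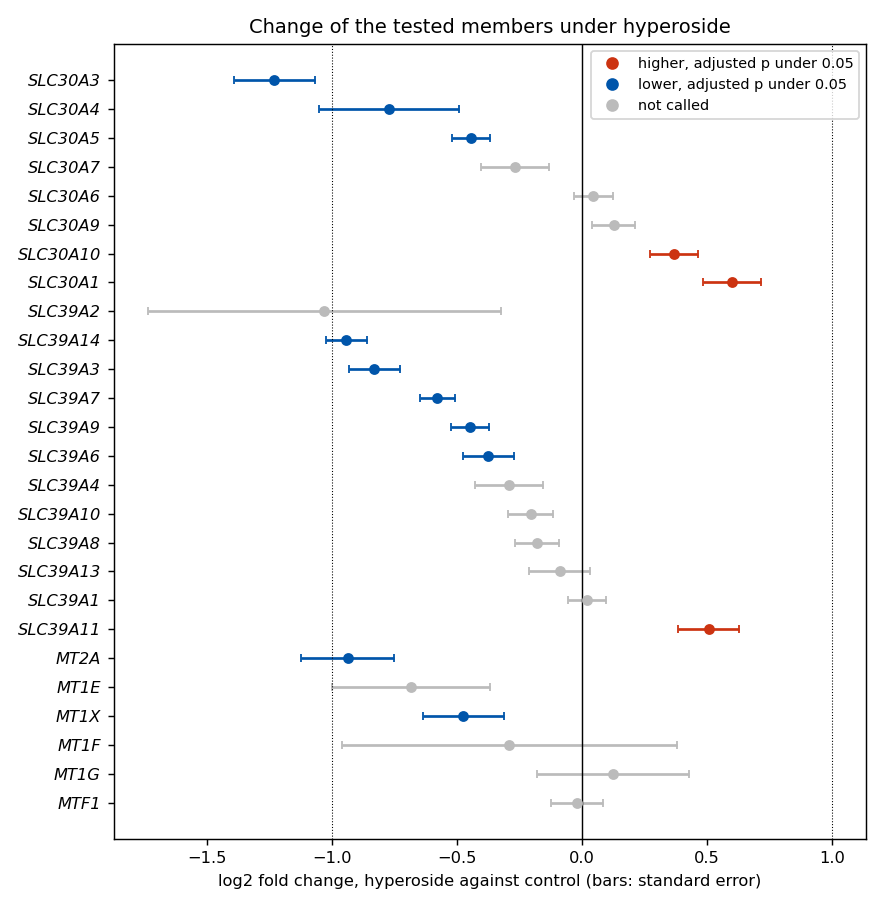
Log2 fold change of each tested member, hyperoside against control, with its standard error, grouped as SLC30A, SLC39A, metallothioneins and MTF1 and coloured by whether the adjusted p was under 0.05, with dotted lines at a fold change of 2. SLC30A3 (-1.23) lay lowest among the called members and SLC30A1 (0.60) highest, and MTF1 lay near 0.

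The zinc sensor itself was level across the 6 libraries. MTF1 had 17.6, 20.1 and 19.3 normalized CPM in control replicates 1 to 3 and 18.7, 18.5 and 19.0 in hyperoside replicates 1 to 3. The hyperoside values lay inside the control range, and the log2 fold change was -0.02 (SE 0.10, adjusted p = 0.887). These are transcript levels, and MTF1 acts as a protein whose activity depends on zinc binding and on its entry into the nucleus.

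The genes on which MTF1 is known to act did not share a direction. MT2A had 126, 71.6 and 85.8 normalized CPM in control replicates 1 to 3 and 50.5, 34.1 and 63.4 in hyperoside replicates 1 to 3. Every hyperoside library lay below every control library, although control replicate 1 stood well above the other controls. MT2A fell by 0.94 on the log2 scale (SE 0.18, adjusted p = 4.71e-04). MT1X had 23.3, 21.0 and 22.8 normalized CPM in controls and 17.1, 10.7 and 20.4 with hyperoside, again with no overlap but with hyperoside replicate 3 close to the controls. MT1X fell by 0.48 (SE 0.16, adjusted p = 0.0227). Without hyperoside replicate 2, its lowest library, the log2 fold change of MT1X was -0.25 (adjusted p = 0.113). SLC30A1, the exporter that carries zinc out across the plasma membrane and a standard readout of MTF1, went the other way. It had 29.3, 35.5 and 37.1 normalized CPM in controls and 50.8, 43.3 and 60.1 with hyperoside. All hyperoside libraries lay above all controls, and SLC30A1 rose by 0.60 on the log2 scale (SE 0.12, adjusted p = 4.05e-04).

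**Figure D2:**
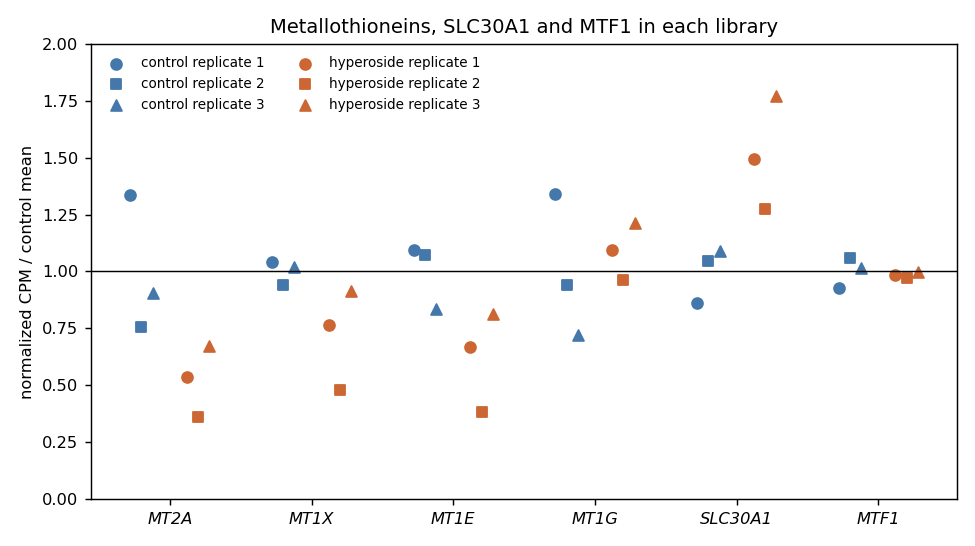
Normalized CPM of MT2A, MT1X, MT1E, MT1G, SLC30A1 and MTF1 in each library, relative to the mean of the 3 control libraries, with replicates marked. SLC30A1 lay at 1.27 to 1.77 times the control mean with hyperoside, MT2A at 0.360 to 0.670 times and MTF1 at 0.973 to 0.999 times.

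Among the hyperoside libraries, MT2A, MT1X, MT1E, MT1G and SLC30A1 shared an order, lowest in replicate 2 and highest in replicate 3. The highest hyperoside library was 1.86 times the lowest for MT2A, 1.90 times for MT1X, 2.12 times for MT1E, 1.26 times for MT1G and 1.39 times for SLC30A1. MTF1 had the same order with a ratio of 1.03, as did SLC30A3, SLC39A6 and SLC39A13. MT1F and MT1H did not, being highest in hyperoside replicate 1. Few orders are possible with 3 libraries, and the share of all tested genes with this order was not computed. A shared order therefore cannot show that these genes vary together. In the control libraries MT2A, MT1X, MT1E and MT1G were highest in replicate 1, in which SLC30A1 and MTF1 were lowest. The lowest control library was replicate 2 for MT2A and MT1X and replicate 3 for MT1E and MT1G.

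The promoter sequences of these genes are shown for the MREs that they hold, since MREs are the sites that MTF1 binds. They come from RefSeq on GRCh38.p14, in which 26 of the 34 members had at least 1 promoter. The MRE core was searched as TGCACNC and TGCGCNC, where N is any base, on both strands in the 250 bases before the RefSeq transcription start. Capitals mark a match, and a match on the minus strand of the printed sequence appears in its reverse complement. The MT1X stretch ends 47 bases before the start, and MT2A is given as 3 short sites of its window, because a GENCODE 29 transcript of MT2A starts further upstream and its exon covers these sites. The SLC30A1 promoter lies at chr1:211579162-211579411 on the minus strand, the MT1X stretch at chr16:56682220-56682423 on the plus strand, and the MT2A sites at chr16:56608425-56608454, chr16:56608485-56608514 and chr16:56608519-56608548 on the plus strand.
SLC30A1: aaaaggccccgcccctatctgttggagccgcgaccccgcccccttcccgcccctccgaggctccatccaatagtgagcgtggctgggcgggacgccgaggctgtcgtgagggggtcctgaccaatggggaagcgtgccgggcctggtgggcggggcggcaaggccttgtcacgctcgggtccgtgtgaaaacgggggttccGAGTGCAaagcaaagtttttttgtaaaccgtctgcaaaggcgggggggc
MT1X: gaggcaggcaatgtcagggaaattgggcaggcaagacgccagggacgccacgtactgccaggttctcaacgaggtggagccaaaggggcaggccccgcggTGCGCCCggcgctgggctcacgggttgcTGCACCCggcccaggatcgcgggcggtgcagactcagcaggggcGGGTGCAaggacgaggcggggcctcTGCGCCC
MT2A site 1: gccgggTGCGCCCggcccagTGCGCGCggc
MT2A site 2: cagcgcggggcGTGTGCAggcagcgcccgg
MT2A site 3: ggcggggctttTGCACTCgtcccggctctt

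The MT2A promoter held 7 core matches and the MT1X promoter 4, while the SLC30A1 promoter held 1. For SLC30A1 the GENCODE transcript starts downstream of the RefSeq start, at chr1:211578742, and the bases just before that GENCODE start were not searched. Whether SLC30A1 holds fewer matches than MT2A and MT1X there was not tested. Of all 35116 RefSeq promoters of this length, 24.8% held at least 1 match, 0.370% at least 4 and 0.120% at least 5. The promoters of MT1H and MT1B held 8 and 3 matches, so all 4 metallothionein promoters in the table held at least 1. Of the 30 promoters of SLC30A and SLC39A genes, 11 held at least 1 match (36.7%). Of the called transporters besides SLC30A1, SLC30A3 held 2 matches in 1 promoter and 1 in another, and SLC30A4, SLC39A3 and SLC39A6 held 1 each. The promoter of MTF1 held none, nor did those of SLC39A7, SLC39A9, SLC39A11, SLC30A5 and SLC30A10. The called SLC39A14 had no promoter in the RefSeq set and was not searched. The same held for SLC39A4, SLC30A8, MT1A, MT1E, MT1F, MT1G and MT1M. The ER stress element, CCAAT and CCACG with 9 bases between them, and the C/EBP-ATF element TGATGNAA were searched in the same way. They were found in none of the 35 promoters of the 26 members searched, against 0.0740% and 3.14% of all promoters. With shares this low, finding none in 35 promoters cannot show whether the members differ from other genes. A match is a description of the letters in these windows and not a bound site.

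The metallothionein genes of the rule lie within 76.0 kb on chromosome 16 (chr16:56608199-56684196, hg38), 8 on the plus strand and MT1G on the minus strand. Per length, MT2A was the highest of all members in both groups, with a mean of 231 FPKM (SD 64.0, n = 3) in controls and 125 FPKM (SD 36.7, n = 3) with hyperoside. MT1X was the next metallothionein, with 54.4 FPKM in controls and 40.4 with hyperoside. Together they made up nearly all metallothionein transcript, MT2A with 77.8% of the summed FPKM in controls and 71.8% with hyperoside, and MT1X with 19.0% and 23.2%.

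The low metallothioneins did not pass the test. MT1E had 2.65, 2.59 and 2.02 normalized CPM in controls and 1.61, 0.926 and 1.97 with hyperoside, with a log2 fold change of -0.69 (SE 0.32, adjusted p = 0.0863), or -0.43 (adjusted p = 0.284) without hyperoside replicate 2. Its groups did not overlap, by a narrow margin between control replicate 3 and hyperoside replicate 3. MT1G had 2.50, 1.76 and 1.34 normalized CPM in controls and 2.04, 1.80 and 2.27 with hyperoside, with groups that overlapped and a log2 fold change of 0.12 (SE 0.30, adjusted p = 0.766). Its share of the metallothionein sum was 1.52% in controls and 3.02% with hyperoside. MT1F had 3, 21 and 20 counts in control replicates 1 to 3 and 19, 8 and 10 in the hyperoside libraries (log2 fold change -0.29, SE 0.67, adjusted p = 0.750). Control replicate 1, the library highest in MT2A, was lowest in MT1F. MT1H had 10, 8 and 6 counts in controls and 16, 6 and 5 with hyperoside, too few for the test.

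The remaining metallothioneins were at or near 0. MT1A had 1, 0 and 1 counts in controls and 0 in each hyperoside library. MT1B had 4 counts, all in hyperoside replicate 3, and MT1M had 1, in hyperoside replicate 1. A count of 0 allows up to 3 counts, a limit that covers counting error only. MT4 and MT1HL1, which the rule leaves out, had no count in any library.

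Metallothionein transcripts are short and alike, which bears on how reads were assigned. Of the 50-base windows along the longest annotated transcript, 4.68% for MT2A, 14.7% for MT1X, 10.6% for MT1E and 14.3% for MT1G occurred letter for letter in the transcript of another gene. For MT1X those genes included AC026461.1, whose exons overlap it on the same strand. The transcripts searched were 903 bases long for MT2A, 1727 for MT1X, 729 for MT1E and 628 for MT1G. The lengths implied by the counts and FPKM were 401, 404, 746 and 410 bases. For all but MT1E the shares thus cover bases beyond the counted length, and the share over that length was not computed. Over the 326 tested genes of under 600 bases the median log2 fold change was -0.15, and the median distance of each library from its own group's mean on the log2 scale was 0.09 in control replicate 1 and between -0.06 and 0.03 in the others. The part of length and of shared sequence in the metallothionein values was not tested.

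**Figure D3:**
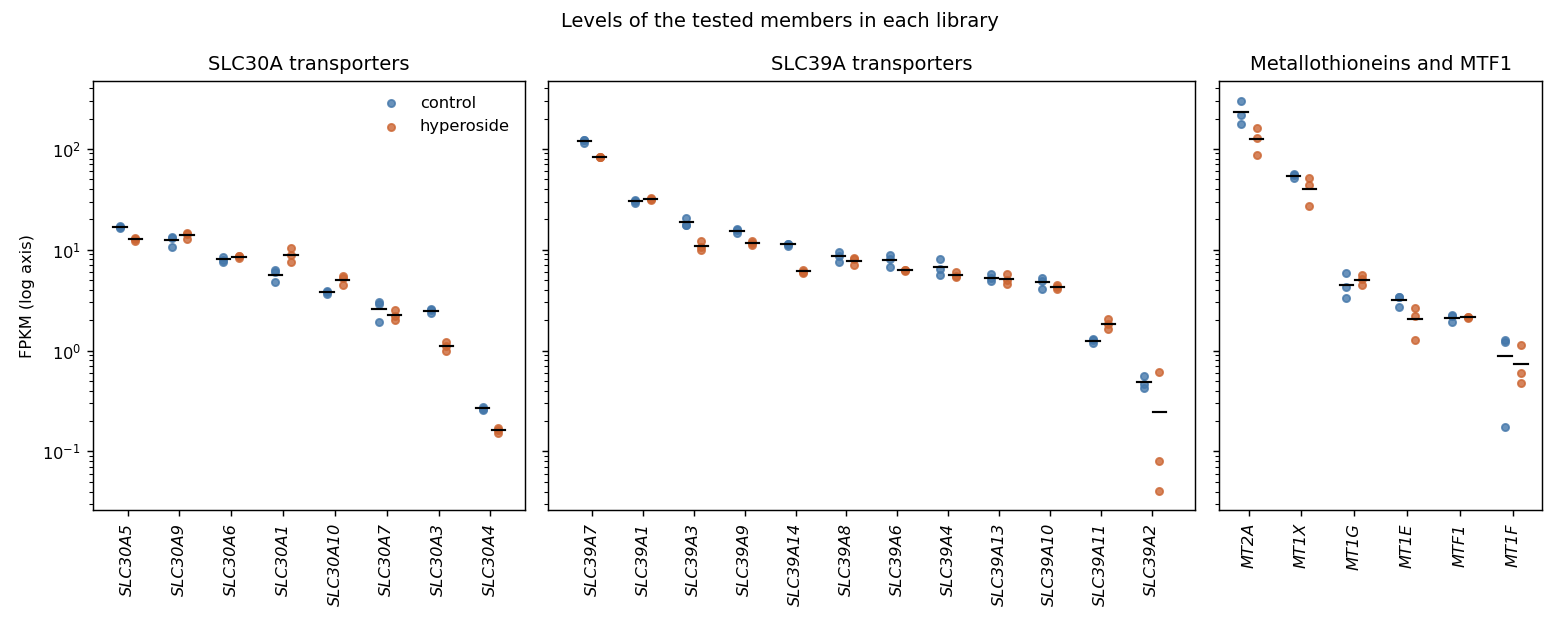
FPKM of each tested member on a log axis, in control and hyperoside libraries (points), with a line at each group's mean. MT2A and SLC39A7 stood highest in both groups, at 231 and 119 FPKM in controls and 125 and 82.8 FPKM with hyperoside.

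Among the SLC30A genes, 8 of 10 were tested, of which 2 rose, 3 fell and 3 did not pass, against 22.1% higher and 23.2% lower over all tested genes. SLC30A3 (ZnT3), known for loading zinc into synaptic vesicles of neurons, had 9.93, 9.49 and 8.79 normalized CPM in controls and 3.98, 3.59 and 4.43 with hyperoside. The groups were far apart, and SLC30A3 fell by 1.23 on the log2 scale (SE 0.16, adjusted p = 7.75e-06), to 0.426 times its control mean. SLC30A5 (ZnT5), which forms a heterodimer with SLC30A6 that fills the early secretory pathway, had 80.5, 80.9 and 79.9 normalized CPM in controls and 59.1, 61.1 and 56.9 with hyperoside. Its replicates were tight in both groups, and it fell by 0.45 (SE 0.08, adjusted p = 1.20e-04). Its partner SLC30A6 lay at 57.9 to 61.3 normalized CPM in controls and 59.3 to 62.5 with hyperoside, with a log2 fold change of 0.04 (SE 0.08, adjusted p = 0.671).

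SLC30A4 (ZnT4), found on endosomal and lysosomal vesicles, was low. It had 2.62, 2.36 and 2.38 normalized CPM in controls and 1.44, 1.498 and 1.36 with hyperoside, with no overlap, and it fell by 0.77 (SE 0.28, adjusted p = 0.0310). Leaving out any 1 of the 6 libraries took this call past 0.05, with adjusted p of 0.0516 to 0.0799 over the alternatives that lost it. SLC30A10, which despite its family name is known as an exporter of manganese, had 28.95, 26.2 and 27.1 normalized CPM in controls and 37.8, 36.5 and 31.8 with hyperoside. It rose by 0.37 (SE 0.10, adjusted p = 0.00476), without overlap.

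SLC30A7, a Golgi transporter, had 19.5 to 29.9 normalized CPM in controls and 19.4 to 24.0 with hyperoside, with control replicate 1 lowest among the controls (log2 fold change -0.27, SE 0.14, adjusted p = 0.119). Without that library the log2 fold change was -0.44 and the adjusted p 9.64e-04. SLC30A9, linked to mitochondrial zinc, had a log2 fold change of 0.13 (SE 0.09, adjusted p = 0.248). SLC30A2 had 9, 4 and 9 counts in controls and 0, 6 and 0 with hyperoside. SLC30A8, the transporter of insulin granules, had 6, 9 and 6 counts in controls and 9, 29 and 5 with hyperoside, its highest value resting on hyperoside replicate 2. Neither was tested.

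The order of SLC30A levels per length shifted. In controls the mean FPKM ran from SLC30A5 (16.8) through SLC30A9 (12.4), SLC30A6 (8.02) and SLC30A1 (5.67) to SLC30A10 (3.79), SLC30A7 (2.61), SLC30A3 (2.49) and SLC30A4 (0.267). SLC30A7 and SLC30A3 did not differ there beyond their spread. With hyperoside it ran from SLC30A9 (13.9) through SLC30A5 (12.8), SLC30A1 (8.87) and SLC30A6 (8.55) to SLC30A10 (5.06), SLC30A7 (2.24), SLC30A3 (1.10) and SLC30A4 (0.162). SLC30A9 and SLC30A5 overlapped across the hyperoside libraries, as did SLC30A1 and SLC30A6.

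Among the SLC39A genes, 12 of 14 were tested, of which 1 rose, 5 fell and 6 did not pass, a called share of 50% against 45.3% over all tested genes. SLC39A7 (ZIP7), which releases zinc from the endoplasmic reticulum into the cytosol, was the most abundant transporter. It had 310 normalized CPM in control replicate 1, 296 in replicate 2 and 275 in replicate 3, and 195, 198 and 196 with hyperoside. The hyperoside libraries were closely spaced and all below the controls, and SLC39A7 fell by 0.58 (SE 0.07, adjusted p = 2.76e-06). SLC39A14 (ZIP14), a plasma membrane importer of zinc, manganese and iron, had 75.8, 70.0 and 72.0 normalized CPM in controls and 37.3, 38.9 and 37.0 with hyperoside. It fell by 0.94 (SE 0.08, adjusted p = 5.86e-08), the smallest adjusted p among the members, and stood at 0.520 times its control mean.

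SLC39A3 (ZIP3), a plasma membrane importer, had 86.0, 70.0 and 69.1 normalized CPM in controls and 37.9, 47.1 and 41.4 with hyperoside. Its groups were well apart, and it fell by 0.83 (SE 0.10, adjusted p = 3.52e-06). SLC39A9 (ZIP9), a transporter of the Golgi, fell by 0.45 (SE 0.08, adjusted p = 1.26e-04), from 87.8 to 92.8 normalized CPM across controls and 62.1 to 68.9 across hyperoside libraries. SLC39A6 (ZIP6), an importer that pairs with SLC39A10, lay at 25.3 to 31.8 normalized CPM in controls and 22.1 to 22.8 with hyperoside and fell by 0.38 (SE 0.10, adjusted p = 0.00644). The partner SLC39A10 had a log2 fold change of -0.21 (SE 0.09, adjusted p = 0.0747).

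SLC39A11 (ZIP11) was the importer gene that rose. It had 10.7, 11.2 and 10.8 normalized CPM in controls and 13.7, 17.2 and 15.7 with hyperoside, without overlap, and rose by 0.51 (SE 0.12, adjusted p = 0.00278). SLC39A1 (ZIP1), a plasma membrane importer and the second most abundant importer gene per length in both groups, had a log2 fold change of 0.02 (SE 0.07, adjusted p = 0.853) and overlapping groups. SLC39A4, the intestinal importer mutated in acrodermatitis enteropathica, SLC39A8, an importer of zinc and manganese, and SLC39A13, an intracellular transporter, had log2 fold changes of -0.29, -0.18 and -0.09 with adjusted p of 0.0842, 0.110 and 0.579. SLC39A4 depended on the controls, with -0.11 (adjusted p = 0.465) without control replicate 1 and -0.42 (adjusted p = 0.0148) without control replicate 3.

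SLC39A2 (ZIP2), a plasma membrane importer, was low and uneven. It had 28, 23 and 21 counts in controls and 2, 4 and 30 with hyperoside. Hyperoside replicate 3 stood at the control level while the other hyperoside libraries were far below it, and the log2 fold change was -1.03 (SE 0.71, adjusted p = 0.248). Without hyperoside replicate 3 it was -2.99 (adjusted p = 0.00848). SLC39A5 had 1 to 5 counts per library and SLC39A12 none, and neither was tested.

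By summed FPKM, the SLC39A genes stood lower with hyperoside, while the SLC30A sums overlapped. The 14 SLC39A genes summed to 235, 232 and 224 FPKM in controls and 172, 177 and 174 with hyperoside, so that the hyperoside mean was 75.8% of the control mean. The 10 SLC30A genes summed to 48.1, 53.8 and 54.3 FPKM in controls and 53.9, 52.9 and 51.4 with hyperoside, or 101% of the control mean. The 9 metallothioneins summed to 367, 237 and 279 FPKM in controls and 182, 120.02 and 219.8 with hyperoside, or 59.1%, and the groups lay apart by less than their own spread. No test was made of these sums.

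**Figure D4:**
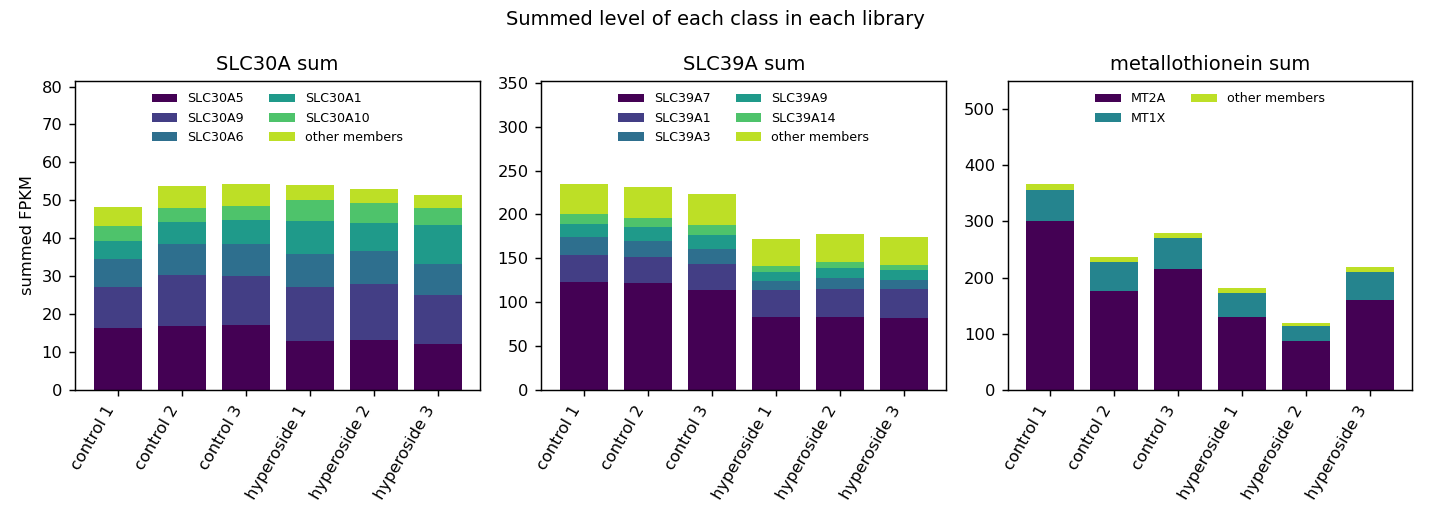
Summed FPKM of the SLC30A, SLC39A and metallothionein genes in each library, stacked by the most abundant genes and the other members together. SLC39A7 made up 51.9% of the SLC39A sum in controls and 47.5% with hyperoside, and MT2A 77.8% and 71.8% of the metallothionein sum.

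Shares of a sum depend on all its members. SLC30A1 made up 10.9% of the SLC30A sum in controls and 16.8% with hyperoside, and SLC30A5 32.3% and 24.2%. Within the SLC39A sum, SLC39A1 made up 13.2% in controls and 18.2% with hyperoside, SLC39A14 4.93% and 3.50%, and SLC39A3 8.10% and 6.22%.

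Some members share exons with a neighbouring gene in GENCODE 29, and whether counting used strand was not given in the sources used here. Exons of genes on the opposite strand overlap SLC39A7 (RXRB), SLC39A9 (ERH), SLC30A3 (DNAJC5G), SLC30A5 (AC010273.1) and SLC30A4 (AC025580.2 and HMGN2P46) among the called members. SLC39A3 shares exonic bases with AC006538.2 on its own strand. SLC39A14, SLC39A6, SLC39A11, SLC30A1, SLC30A10 and MT2A overlap no exon of another gene. The part of neighbouring transcripts in these values was not tested.

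Other genes that handle zinc were taken as a list. Of 13, 12 were in the table and 8 were tested, of which 2 rose and 4 fell (45.3% of all tested genes were called), with a median log2 fold change of -0.35. MCOLN1, a lysosomal cation channel that can pass zinc, rose by 0.94 (SE 0.13, adjusted p = 1.95e-05), from 3.33, 3.37 and 4.24 FPKM in controls to 6.82, 7.31 and 7.49 with hyperoside. CA1, a carbonic anhydrase of red cells, rose by 0.40 (SE 0.11, adjusted p = 0.00503). The 4 that fell, CBWD6 (-0.80), CBWD5 (-0.58) and CBWD2 (-0.38) among them, were copies of the zinc chaperone ZNG1 that are close enough for their reads to be confused, so they are uncertain as separate genes. Without control replicate 2 CBWD5 and CBWD2 lost their calls (adjusted p = 0.0579 and 0.0665), as did CBWD2 without hyperoside replicate 1 (0.0731).

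Copper handling and manganese or magnesium transport were counted in the same way, since metallothioneins bind copper and several SLC30A and SLC39A proteins carry manganese. Of 14 copper genes tested, 1 rose and 6 fell (median log2 fold change -0.15), a share again near the 45.3% called over all genes. SLC31A1, the plasma membrane copper importer, had 33.1, 35.0 and 39.1 FPKM in controls and 17.1, 17.4 and 17.9 with hyperoside and fell by 1.08 (SE 0.07, adjusted p = 4.70e-09), the only DEG of the list. The copper exporter ATP7B rose by 0.45, while CUTC fell by 0.68, CUTA by 0.37 and the copper-zinc enzyme SOD1 by 0.29. Of 13 manganese and magnesium genes, 11 were tested, of which 2 rose and 3 fell (median -0.14), also near that 45.3%. SLC41A1, a magnesium exporter, fell by 0.68 (SE 0.10, adjusted p = 1.43e-05), SLC11A2, the iron and manganese importer DMT1, by 0.31 and CNNM3 by 0.25, while TUSC3 and SLC41A3 rose by 0.35 each. CNNM3 lost its call in 9 of the 14 alternatives, among them those without control replicate 2 (adjusted p = 0.0775) or without hyperoside replicate 1 (0.0918), 2 (0.0893) or 3 (0.0661). SLC11A2 (0.0774) and SLC41A3 (0.0878) also lost theirs without hyperoside replicate 3.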

How the data were processed

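RNA-seq of 6 K562 libraries, 3 control and 3 hyperoside by the labels, was used. The authors deposited raw read counts per gene and, from the same counts, FPKM values, which are counts scaled to gene length and library total. The submitters' processing notes name fastp, HISAT2, HTSeq and the build hg38. Their versions, the annotation and the use of strand were not given in the sources used here. RNA was extracted with TRIzol.

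Counts were tested in R 4.3.3 with edgeR 4.0.16 (filterByExpr with a minimum count of 10 and total of 15, TMM scaling, quasi-likelihood test on condition alone, Benjamini-Hochberg adjustment over 15095 genes). The common biological coefficient of variation was 0.105. Standard errors were obtained by dividing each log2 fold change by the root of its F statistic. A call was an adjusted p under 0.05, and a DEG also had a fold change above 2. CPM were normalized by TMM and compared between groups, while FPKM served to compare genes and to sum levels. The sums and the FPKM of single genes were also given for both groups, without TMM scaling. The log2 fold changes beside them used TMM. DESeq2 1.42.0 and limma 3.58.1 were alternatives, limma on log2(FPKM + 1) and log2(FPKM + 0.1). Scripts were tested on simulated data. Tables were made in Python 3.11.15 with pandas 2.3.3, numpy 2.4.6 and matplotlib 3.10.9. Gene positions came from GENCODE 29 (GRCh38) and promoters from RefSeq.

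The members and lists were chosen with earlier results of these data known. Values in every library were given for called members with a log2 fold change of at least 0.5 in size, for metallothioneins with at least 10 counts in all, for MTF1 and SLC30A1, and for the most abundant member of each class. Of the other lists, up to 5 called genes with the smallest adjusted p were named. Alternatives left out each library in turn or changed the scaling, the filter, the tool and the replicate term. One of the chosen cell markers is not reported here.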

Additional observations from a re-analysis of the deposited data

How the results depend on the processing

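Of the 13 called members, 11 kept their call in all 14 alternatives, and MT1X and SLC30A4 did not. The number of members called higher was 3 in every alternative, and the number called lower, 10, lay between 8 and 12 when each library was left out in turn. MT1X lost its call with library totals in place of TMM (adjusted p = 0.0540), with limma on log2(FPKM + 1) (0.0829) and log2(FPKM + 0.1) (0.0717) and without hyperoside replicate 2 (0.113). SLC30A4 lost its call in 9 alternatives, including every one that left out a library. On log2(FPKM + 1), which shrinks the change of low genes, limma gave 0 members as lower DEGs and a median log2 fold change of -0.14. With each library left out, lower DEGs numbered 1 to 3 and the median lay between -0.44 (without control replicate 1) and -0.23. MT2A passed as a DEG without control replicate 2 (-1.11), control replicate 3 (-1.01) or hyperoside replicate 3 (-1.15), and SLC39A2 did so without hyperoside replicate 3. SLC30A7, SLC39A10 and SLC39A8 were called lower without control replicate 1, and SLC39A4 without control replicate 3. The cause was not tested. Members near 0 changed sign without passing the test. With limma on log2(FPKM + 0.1), MT1F was at 0.0078. MTF1 was at 0.028 with library totals, at 0.020 with limma on log2(FPKM + 1) and at 0.030 on log2(FPKM + 0.1). With each library left out, the log2 fold change lay between -0.77 and 0.060 for MT1F, -0.069 and 0.39 for MT1G, -0.070 and 0.020 for MTF1, and -0.026 and 0.060 for SLC39A1.

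The replicate numbers showed no pairing of the libraries. Deviations from the group means correlated at -0.08, -0.03 and -0.03 between libraries of the same number, and no library correlated best with its own number. With 3 libraries per group, these values cannot show whether the libraries were made in matched batches. With the replicate block, 3 members were called higher and 9 lower, with SLC30A4 at an adjusted p of 0.0533 and, of the other lists, CNNM3 at 0.0709. CNNM3 was also past 0.05 with library totals (0.0677), with no filter (0.0602) and with both limma fits, and SLC11A2 with both limma fits (0.0592 and 0.0541). Depth limits the members with few counts: MT1A, MT1B, MT1H, MT1M, SLC30A2, SLC30A8, SLC39A5 and SLC39A12 were too low to test.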
